A study of Mus musculus with 8 samples.

Results

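The genes described are 10 components of interleukin-6 (IL-6) family signalling: the ligand genes Il6, Il11 and Lif, the receptor genes Il6st, Lifr and Osmr, the kinase genes Jak1 and Jak2, the transcription factor gene Stat3 and the inhibitor gene Socs3. They were picked by symbol, and each of the 10 matched exactly 1 row of each deposited table, out of 52338 genes in one and 52139 in the other. The data are RNA sequencing of 8 libraries labelled as wild-type C2C12, an immortalised mouse myoblast line. One table sets 3 libraries of cells given ginsenoside Re, a ginseng saponin, against 3 DMSO libraries, and is called the Re table. The other, called the pair, sets 1 library from cells treated with ginseng berries concentrate (GBC) against 1 DMSO library. Doses and times are not in the labels, all 8 libraries are labelled as the same line, and DMSO is a solvent. The labels do not say whether replicates were separate cultures, so p-values measure only the spread between these libraries. Values are TPM, a level per transcript length, whose read depth is unknown, and differences are in log2(TPM + 1), where the added 1 shrinks those of genes at low levels.

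IL-6 family cytokines act through receptor complexes that share gp130, the product of Il6st. LIF pairs gp130 with the LIF receptor, oncostatin M with the OSM or LIF receptor, and IL-6 and IL-11 first bind their own alpha receptors. Receptor-bound JAK kinases then phosphorylate STAT3, which enters the nucleus and switches on genes that include Socs3, whose product binds gp130 and JAKs and ends the signal. In muscle, IL-6 is released by contracting fibres, and LIF and STAT3 act on the growth of myoblasts. An mRNA level says nothing of the phosphorylation of STAT3.

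Socs3 is the feedback gene of this pathway, so the stretch before its start is shown with the sequence that STAT factors are known to bind, TTCNNNGAA, which reads the same on both strands. Its 250 bases before the RefSeq start lie on the minus strand at chr11:117969367-117969616 (GRCm38.p6), with the match in capitals.
Socs3: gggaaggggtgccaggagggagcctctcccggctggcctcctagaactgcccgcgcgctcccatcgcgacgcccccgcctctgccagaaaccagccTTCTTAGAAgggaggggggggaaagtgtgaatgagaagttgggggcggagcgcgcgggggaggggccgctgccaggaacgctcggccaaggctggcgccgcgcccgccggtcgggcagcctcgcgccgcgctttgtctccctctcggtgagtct
The match lies 154 to 146 bases before the start. RefSeq windows were found for all 10 genes, 12 in all, and the Socs3 window was the 1 that held these letters. Over all 32851 RefSeq windows of this length, 7.02% held them. A match of letters is a description and not a measured site.

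The label was checked against marker genes. Of the 8 myoblast markers, 7 were at 1 TPM or more in every library of the Re table, with Pax7, of the muscle stem cell, as the exception, and their summed level was 237.5 to 248.9 TPM in Re and 229.7 to 256.5 TPM in DMSO. In the pair the same list summed to 1.88 TPM in GBC and 2.12 TPM in DMSO, with Myod1, Myf5, Cdh15 and Pax7 listed at 0 in both libraries and Des, at 1.59 TPM in GBC and 1.92 TPM in DMSO, as its largest part. Mesenchymal markers summed to 140.4 TPM in GBC and 94.1 TPM in DMSO of the pair. In the Re table they summed to 43.8 to 53.7 TPM in Re and 43.2 to 50.15 TPM in DMSO. Of the 7, 5 were at 1 TPM or more in each library of the pair, and 4 in every library of the Re table. Pdgfra, Thy1 and Ly6a were higher in the pair, but Pdgfrb was lower, at 3.26 TPM in GBC and 1.78 TPM in DMSO. In the Re table Pdgfrb was at 14.68 to 16.15 TPM in Re and 13.37 to 15.56 TPM in DMSO. Col1a1 had 46.6 TPM in GBC and 10.9 TPM in DMSO of the pair. The pair is therefore called by its labels only. Leukocyte markers, a possible source of cytokine mRNA, summed to 2.96 to 3.23 TPM in Re and 1.86 to 2.90 TPM in DMSO, most of it Cd68, with Ptprc and Adgre1 listed at 0 in all 6 libraries. The 4 endothelial, 4 adipocyte and 3 epithelial markers summed to at most 1.56 TPM in any library. The listed TPM summed to 704657 to 743269 in Re and 642180 to 716589 in DMSO, and to 479938 in GBC and 403442 in its DMSO library. Mitochondrially encoded genes took 13.6% to 16.9% of it in Re and 14.4% to 18.1% in DMSO, and 19.2% in GBC and 16.8% in its DMSO library. The part of these sums and markers in the results that follow was not tested.

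The receptor, kinase and STAT genes were above the ligand genes in all 8 libraries. In Re libraries the order by mean was Jak1, Stat3, Il6st, Jak2, Lifr, Osmr, Socs3, Lif, Il11 and Il6. Neighbours whose values overlapped there were Stat3 and Il6st, Osmr and Socs3, and Il11 and Il6. In DMSO libraries of the same table Il6st stood before Stat3 and Socs3 before Osmr, and the ranges of both pairs overlapped, as did those of Jak2 and Lifr, Lif and Il11, and Il11 and Il6. In the pair Jak1 and Il6st led, as in the DMSO libraries of the Re table. Stat3 stood next in the GBC library, while in the DMSO library of the pair Socs3 and Osmr came before Stat3. Jak1, the highest, averaged 44.97 ± 5.95 TPM in Re and 47.4 ± 6.43 TPM in DMSO (SD, n = 3 each). That level exceeded 81.2% of the 12011 genes at 1 TPM or more in Re and 83.5% of the 11905 in DMSO. In bulk RNA, fewer cells of a type and less RNA per cell cannot be told apart.

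**Figure D1:**
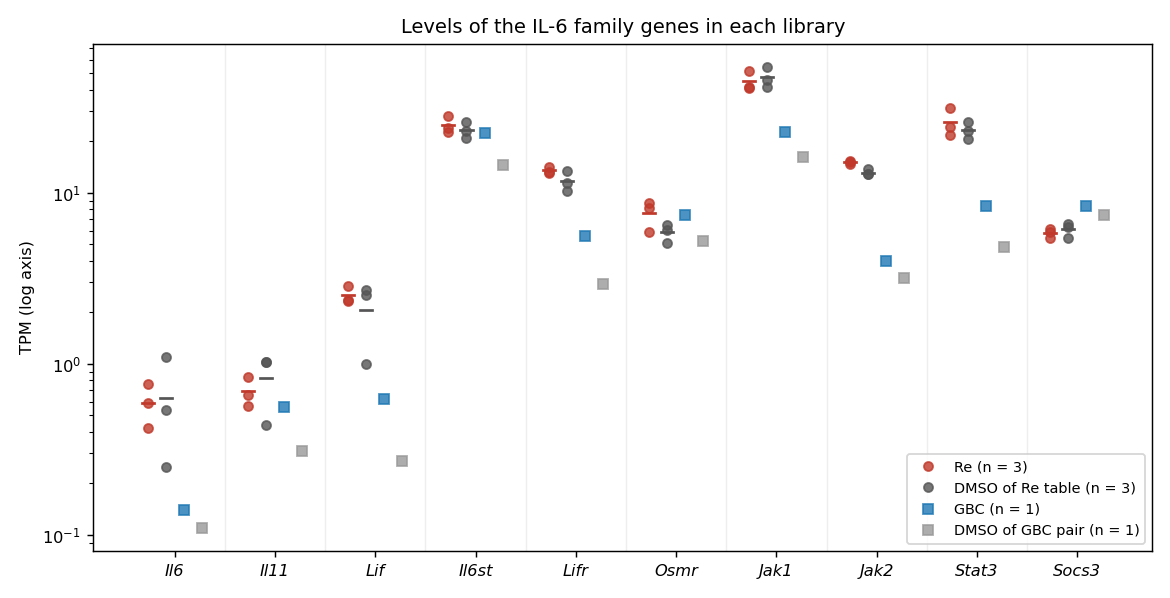
TPM (log axis) of each of the 10 genes in each of the 8 libraries, with a short line at the mean of 3 libraries. The ligand genes lie at or under 2.86 TPM in every library, and Jak1 leads in every group.

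With Re, no member passed the test. Of the 10 genes, 8 reached the mean of 1 TPM needed for testing, and limma called 0 of these 8 at an adjusted p under 0.05. It called 0 of 11967 genes over the whole table, which is 0%, so the members stood as the table did. At an unadjusted p under 0.05 there were 0 members and 745 genes, or 6.23% of the table. Their differences were positive in 6 and negative in 2, with a median of 0.16, while 77.5% of all tested genes were positive and the median of all was 0.11. After median-of-ratios scaling, which takes that shift out, the median of the 8 was 0.05. Over the 8, the lowest bound of a 95% interval was -0.38 and the highest 0.83, both in log2(TPM + 1).

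The 3 ligand genes were low. Il6 (ENSMUSG00000025746), which encodes the founding cytokine, had 0.59, 0.42 and 0.76 TPM in Re and 0.54, 0.25 and 1.10 TPM in DMSO. The Re values lie within the DMSO range. Il11 (ENSMUSG00000004371), a cytokine of stromal cells, had 0.66, 0.57 and 0.84 TPM in Re and 1.02, 0.44 and 1.03 TPM in DMSO. These lie inside the DMSO range too, and neither gene reached the mean of 1 TPM, so neither was tested. Lif (ENSMUSG00000034394), which encodes leukaemia inhibitory factor, had 2.33, 2.35 and 2.86 TPM in Re and 2.53, 1.0 and 2.71 TPM in DMSO. DMSO replicate 2 was the lowest of the 6 libraries in all 3 ligand genes and stood alone for Lif, where the other 5 libraries were between 2.33 and 2.86 TPM. The difference of Lif was 0.24 with a 95% interval of -0.35 to 0.83 (adjusted p 0.744 in limma), and -0.05 without DMSO replicate 2.

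The shared receptor gene Il6st (ENSMUSG00000021756) had 22.7, 23.9 and 28.0 TPM in Re and 23.1, 21.1 and 26.05 TPM in DMSO. The groups overlapped over most of their range. Its difference was 0.08 with an interval of -0.19 to 0.36 (adjusted p 0.814 in limma), and -0.03 after median-of-ratios scaling. Lifr (ENSMUSG00000054263), the signalling receptor for LIF, had 13.3, 13.0 and 14.2 TPM in Re and 13.5, 11.5 and 10.2 TPM in DMSO. Its Re values lay in the upper part of the DMSO range or just above it. Its difference was 0.20 with an interval of -0.08 to 0.48 (adjusted p 0.687 in limma), and 0.09 after scaling. Osmr (ENSMUSG00000022146), the oncostatin M receptor subunit, had 5.94, 8.72 and 8.16 TPM in Re and 6.05, 5.06 and 6.52 TPM in DMSO. Re replicates 2 and 3 were above all DMSO libraries and Re replicate 1 was among them. The Osmr difference was 0.31 with an interval of -0.06 to 0.69 (adjusted p 0.687 in limma), and 0.21 after scaling.

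Of the kinase genes, Jak2 (ENSMUSG00000024789) was the 1 member whose groups did not overlap as deposited. It had 14.8, 15.4 and 15.1 TPM in Re and 13.8, 12.8 and 12.8 TPM in DMSO. Every Re library was above every DMSO library, and the gaps within its groups, at most 0.10 on the log2 scale, were the smallest of any member. The difference was 0.19 with an interval of -0.03 to 0.40 (unadjusted p 0.0784, adjusted p 0.687 in limma). Such separation upward was seen in 13.7% of all tested genes, and 1 of 8 members is near that share. After scaling, where 5.24% of genes separated upward, the groups of Jak2 overlapped, at 14.0 to 15.0 in Re and 13.1 to 14.4 in DMSO on the scaled TPM, and the difference was 0.08. Jak1 (ENSMUSG00000028530), which encodes the kinase most tied to gp130, had 41.2, 41.9 and 51.8 TPM in Re and 41.8, 54.4 and 45.9 TPM in DMSO. The groups overlapped, and 1 library in each was high. Its difference was -0.07 with an interval of -0.38 to 0.23 (adjusted p 0.848 in limma), and 0.03 without DMSO replicate 2.

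Stat3 (ENSMUSG00000004040) had 21.8, 24.15 and 31.5 TPM in Re and 20.7, 22.9 and 26.1 TPM in DMSO. Re replicate 3 stood above the other 5 libraries, and the other 2 Re libraries were inside the DMSO range. The difference was 0.13 with an interval of -0.21 to 0.48 (adjusted p 0.756 in limma), and -0.01 without Re replicate 3. In the GENCODE M21 annotation 72 of the 9527 exon bases of Stat3 overlap Stat5a on the opposite strand, and 4 of the 7227 of Jak1 overlap Raver2. Whether reads were counted by strand is not given in the sources used here, so reads in those bases cannot be assigned. The genes whose pattern over the 6 libraries was most like that of Stat3 were Nipbl, Tmem127 and Sema3e, with Pearson r of 0.991, 0.99 and 0.988, among 8649 genes searched over 6 libraries that share the same scaling shift.

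Socs3 (ENSMUSG00000053113) had 5.42, 6.18 and 5.93 TPM in Re and 6.35, 5.44 and 6.61 TPM in DMSO. As deposited the groups overlapped, with a difference of -0.06 and an interval of -0.35 to 0.23 (adjusted p 0.874 in limma). After scaling it was the 1 member whose groups did not overlap, at 5.34 to 6.005 in Re and 6.11 to 6.77 in DMSO on the scaled TPM, a difference of -0.16. Downward separation then held for 4.96% of all tested genes, against 1.27% as deposited. The genes most like Socs3 over the 6 libraries were Ppif, Tomm20 and Cpne2, with Pearson r of 0.969, 0.96 and 0.958. These too are the highest among 8649 genes searched over only 6 libraries, so they are a description and were not tested.

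**Figure D2:**
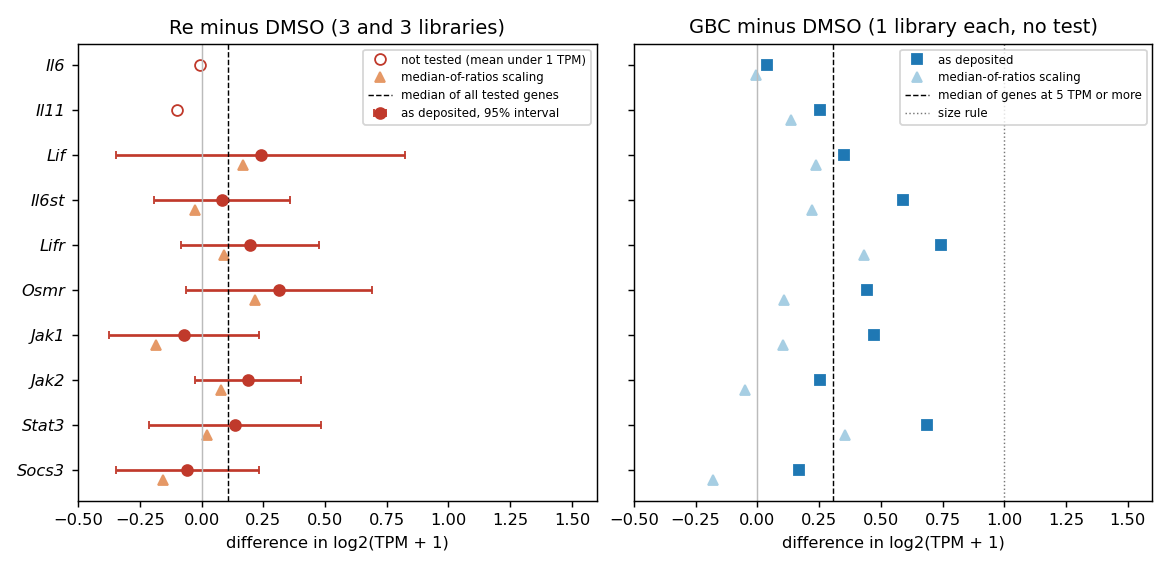
Differences in log2(TPM + 1) of the 10 genes, for Re minus DMSO with limma's 95% interval at left and for GBC minus DMSO, with 1 library each, at right. Triangles are values after median-of-ratios scaling, and dashed lines mark the medians over all genes, 0.11 at left and 0.31 at right.

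In the GBC pair all 10 members were higher in the GBC library as deposited, but none by the size rule of 1 on the log2 scale at a mean of at least 5 TPM. With 1 library a group there is no replicate check and no test. The 5 members above that mean were Il6st, Osmr, Jak1, Stat3 and Socs3. Of 6639 genes at that level, 5.21% were past the rule either way and 4.97% upward, and 0 of the 5 members were. A positive difference is no mark of the members, since 88.9% of those genes had one and their median was 0.31. The median of the 5 was 0.47, or 0.11 after scaling, where the median of all genes was -0.06.

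Lifr had 5.60 TPM in GBC and 2.94 TPM in DMSO, a difference of 0.74, or 0.43 after scaling. Stat3 had 8.43 TPM in GBC and 4.85 TPM in DMSO, a difference of 0.69, or 0.35 after scaling. Stat3 exceeded the differences of 85.01% of the genes at 5 TPM or more, and Lifr, whose pair mean was 4.27 TPM, those of 87.5% of 10989 genes at 1 TPM or more. Il6st had 22.3 TPM in GBC and 14.5 TPM in DMSO, a difference of 0.59, or 0.22 after scaling. Osmr had 7.45 TPM in GBC and 5.21 TPM in DMSO, a difference of 0.44, or 0.11 after scaling. As a yardstick from the other table, the widest gap between libraries of 1 group there was 0.37 for Lifr, 0.51 for Stat3, 0.29 for Il6st and 0.49 for Osmr as deposited. As deposited, the difference was above that gap for Lifr, Stat3 and Il6st and under it for Osmr, where the median of all genes was 0.31. The scaled difference was above it for Lifr and under it for Stat3, Il6st and Osmr, but the gaps were not scaled. The gaps also come from libraries whose marker genes differ and where Lifr and Stat3 were at higher levels, so the yardstick decides nothing.

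Jak1 had 22.8 TPM in GBC and 16.1 TPM in DMSO, a difference of 0.47. Jak2 had 3.98 TPM in GBC and 3.18 TPM in DMSO, a difference of 0.25, below the median of all genes and -0.05 after scaling. Socs3 had 8.41 TPM in GBC and 7.38 TPM in DMSO, a difference of 0.17 that was smaller than those of 69.3% of genes at 5 TPM or more. Its sign turned with scaling, to -0.18 after median-of-ratios scaling and to -0.06 when both libraries were set to equal listed sums. Lif had 0.62 TPM in GBC and 0.27 TPM in DMSO, a ratio of 2.30. Its difference was 0.35 with 1 added to the TPM and 0.96 with 0.1 added. Il11 had 0.56 TPM in GBC and 0.31 TPM in DMSO, and Il6 had 0.14 TPM in GBC and 0.11 TPM in DMSO. These ligand values are under 1 TPM, where the 0.01 step of the deposited TPM and an unknown number of reads limit what can be read from them.

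Ratios between members within a library do not depend on how that library was scaled, and 5 were described after the levels had been seen. Socs3 over Stat3 was 0.248, 0.256 and 0.188 in Re and 0.307, 0.238 and 0.253 in DMSO. These groups overlapped, with Re replicate 3 the lowest of the 6. In the pair the same ratio was 0.998 in GBC and 1.52 in DMSO, above all 6 libraries of the Re table. Stat3 over Il6st was 0.962, 1.01 and 1.12 in Re and 0.896, 1.09 and 1.003 in DMSO, but 0.378 in GBC and 0.334 in DMSO of the pair. Stat3 and Il6st were thus near equal in all 6 libraries of the Re table, and Il6st was the higher in both libraries of the pair.

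Lifr over Il6st was 0.588, 0.546 and 0.509 in Re and 0.585, 0.545 and 0.393 in DMSO, against 0.251 in GBC and 0.203 in DMSO of the pair. Jak2 over Jak1 was 0.359, 0.369 and 0.292 in Re and 0.329, 0.236 and 0.279 in DMSO, against 0.175 in GBC and 0.197 in DMSO of the pair. For both ratios the pair lay below the Re table. Osmr over Il6st ran from 0.2619 to 0.365 in Re and from 0.24 to 0.2618 in DMSO. Every Re library was thus above every DMSO library, the lowest only barely, and the share of other ratios that separate was not computed. In the pair this ratio was 0.334 in GBC and 0.359 in DMSO, inside the range of the Re table. The tables were treated as normalised separately and their marker genes differ as given above, so the contrast between tables is a description that cannot be told apart from other differences between them.

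**Figure D3:**
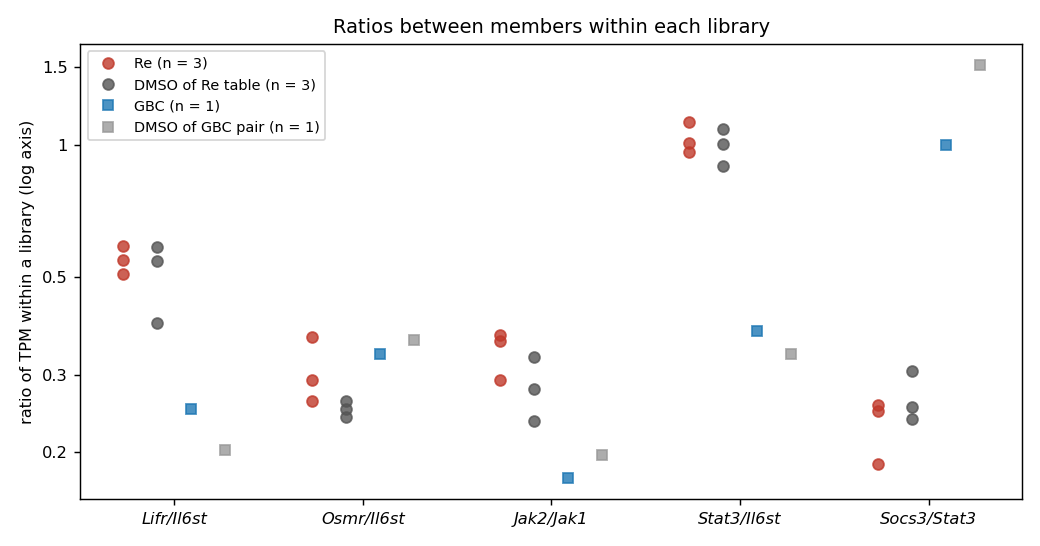
Ratio of the TPM of 2 members within each library (log axis), for 5 pairs of genes, by group. Socs3 over Stat3 is 0.998 in GBC and 1.52 in its DMSO library, while the other 6 libraries lie between 0.188 and 0.307.

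The wider pathway was followed with 65 further genes in 6 groups by role, all of which were found in the tables. With Re, 49 were tested, 0 passed, 34 were positive and 15 negative, and the median was 0.07, under the 0.11 of all tested genes. At an unadjusted p under 0.05 there was 1, Saa3, against 6.23% of the table. Groups did not overlap in 8 of the 49 genes, 4 upward and 4 downward, against 13.7% upward and 1.27% downward over the table. After scaling these were 2 upward and 5 downward, against 5.24% and 4.96% of the table. In the pair 27 had a mean of at least 5 TPM, of which 0 passed the size rule, 26 were positive and 1 negative, with a median of 0.23. Of all genes at that level 88.9% were positive, and their median was 0.31.

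Among 9 further ligand genes, 4 were tested with Re, 2 positive and 2 negative. Clcf1, which encodes the cardiotrophin-like cytokine, averaged 19.4 TPM in Re and 19.3 TPM in DMSO. In the pair Clcf1 had 27.6 TPM in GBC and 23.4 TPM in DMSO, a difference of 0.23. It exceeded the 3 ligand members in every group. Cntf, ciliary neurotrophic factor, averaged 2.04 TPM in Re and 1.51 TPM in DMSO, a difference of 0.24. Osm, Il27 and Il31 were listed at 0 in all 8 libraries.

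Of 6 further receptor genes, 2 were tested with Re and both were negative. Il6ra, the alpha receptor that IL-6 binds first, was at 0.947 ± 0.0907 TPM in Re and 1.17 ± 0.0929 TPM in DMSO (SD, n = 3 each). Every Re library was below every DMSO library, as in 1.27% of all tested genes, and the difference was -0.15 (adjusted p 0.765 in limma). After scaling, Il6ra differed by -0.21 and its groups still did not overlap, as in the 4.96% of genes lower in every Re library. Il11ra1, the alpha receptor of IL-11, was at 4.09 to 4.76 TPM in Re and 3.82 to 8.67 TPM in DMSO, a difference of -0.20. In the pair it had 15.3 TPM in GBC and 14.7 TPM in DMSO. Cntfr and Il31ra were under 0.2 TPM in every library.

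Among the other kinase and STAT genes, 5 of 8 were tested with Re and all 5 were positive, with a median of 0.29, or 0.23 after scaling. As deposited, 77.5% of all tested genes were positive and their median was 0.11. Stat2 and Tyk2, which also serve interferon receptors, differed by 0.38 and 0.32 (adjusted p 0.687 each in limma). Tyk2 was at 4.63 to 5.73 TPM in Re and 3.43 to 4.56 TPM in DMSO, without overlap. Such upward separation was seen in 13.7% of all tested genes, and in 5.24% after scaling, where Tyk2 still separated. In the pair Stat6, of IL-4 signalling, had 12.2 TPM in GBC and 10.9 TPM in DMSO, while in the Re table it stayed at or under 1.04 TPM.

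Of 14 further inhibitor genes, 13 were tested with Re, 12 positive and 1 negative, with a median of 0.16, or 0.05 after scaling. As deposited, 77.5% of all tested genes were positive and their median was 0.11. Ptpn6 and Ptpn1, which encode the phosphatases SHP-1 and PTP1B, had differences of opposite sign, 0.32 and -0.31. Ptpn1 was at 14.7 to 24.4 TPM in Re and 19.9 to 29.2 TPM in DMSO, with overlap. In the pair 6 inhibitor genes had a mean of at least 5 TPM and all 6 were positive, as were 88.9% of all genes at that level. The median of the 6 was 0.23, or -0.10 after scaling. They were led by Pias3, an inhibitor of STAT3, at 7.45 TPM in GBC and 4.99 TPM in DMSO. Socs6 came next, at 6.94 TPM in GBC and 5.13 TPM in DMSO. Socs2, picked after its values were seen, was listed at 0 in both libraries of the pair and was at 8.81 to 10.01 TPM in Re and 6.76 to 9.52 TPM in DMSO.

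Sheddases, which cut receptors from the cell surface, and genes of the SHP2 branch were 5 positive and 3 negative of 8 with Re. Of all tested genes, 77.5% were positive. Grb2, an adaptor, and Adam10, a sheddase, had differences of -0.28 and -0.18 (adjusted p 0.688 and 0.693 in limma). The groups of both overlapped. Of the 8, 0 separated upward and 1 downward, Mapk3, against 13.7% and 1.27% of all tested genes. The Mapk3 difference was -0.17 (adjusted p 0.687 in limma). Its groups still separated after scaling, where 4.96% of all tested genes separated downward. In the pair Adam10 had 8.35 TPM in GBC and 3.98 TPM in DMSO, a difference of 0.91 that was the widest of the 27 genes and just short of the size rule. Ptpn11, which encodes SHP2, had 21.9 TPM in GBC and 12.5 TPM in DMSO, a difference of 0.76.

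Known STAT3 targets were 10 positive and 7 negative of 17 tested with Re, with a median of 0.01. Saa3, an acute-phase serum amyloid gene, was at 1.67 to 4.52 TPM in Re and 3.96 to 6.26 TPM in DMSO, a difference of -0.72 (unadjusted p 0.031, adjusted p 0.687 in limma). Fos, of the AP-1 factor, was at 1.02 to 1.27 TPM in Re and 1.39 to 2.24 TPM in DMSO, a difference of -0.40 without overlap (adjusted p 0.687 in limma). Of the 17 targets, 1 separated upward, Mcl1, and 2 downward, Fos and Cebpd, against 13.7% and 1.27% of all tested genes. After scaling, where 5.24% of all tested genes separated upward and 4.96% downward, the groups of Mcl1 overlapped. Fos and Cebpd then still separated downward. So did Ccnd1, at 118.3 to 127.6 in Re and 129.5 to 141.6 in DMSO on the scaled TPM. Vegfa, an angiogenic growth factor, and Myc were the wider of the 11 targets in the pair, at 21.1 TPM in GBC and 12.1 TPM in DMSO for Vegfa and at 20.2 TPM in GBC and 12.8 TPM in DMSO for Myc. Of these 11 targets, 10 were positive, against 88.9% of all genes at that level.

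**Figure D4:**
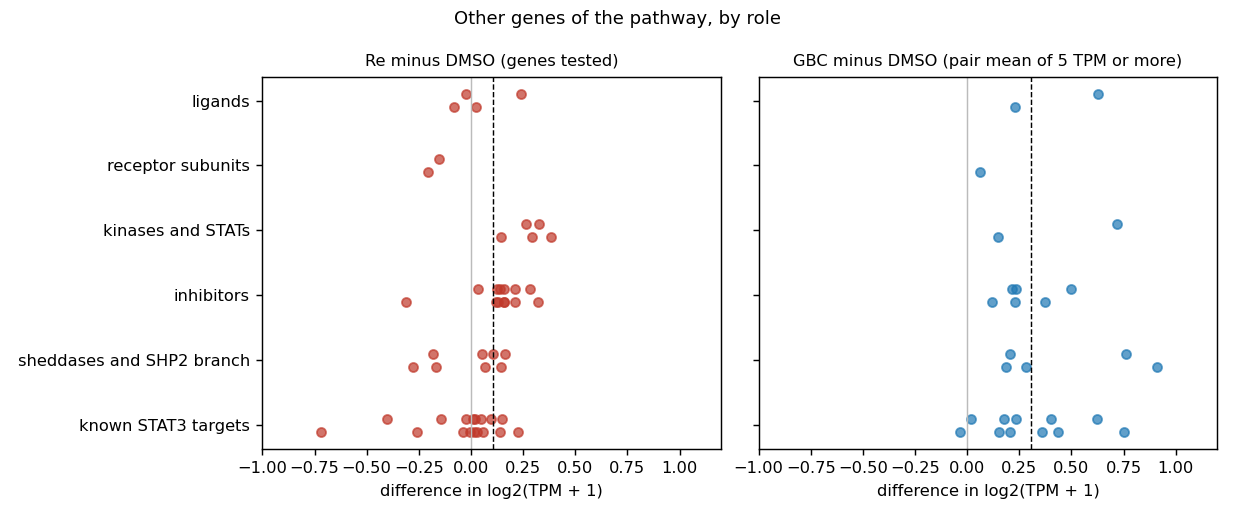
Differences in log2(TPM + 1) of the further pathway genes by role, for Re minus DMSO (49 genes tested) and GBC minus DMSO (27 genes with a pair mean of 5 TPM or more), 1 point a gene. Dashed lines mark the medians over all genes, and no gene passed the test or the size rule.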

How the data were processed

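The authors deposited log2(TPM + 1) per Ensembl gene for 8 libraries of total RNA, made with a TruSeq RNA kit per the labels' protocols. STAR and RSEM and the builds GRCh38 and GRCm39 are named in the submitters' processing notes, with no roles, versions or settings. Values were turned back to TPM and rounded to the 0.01 step they hold. Read depth is unknown, so no count model, counting interval or floor was used.

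The Re comparison used limma 3.58.1 under R 4.3.3 (lmFit and eBayes with trend, two-sided) on log2(TPM + 1) over every gene that averaged 1 TPM or more across the 6 libraries, with Benjamini-Hochberg adjustment over all of them and a threshold of 0.05. The step was tested on simulated data with independent noise per gene and planted differences wider than those of any member. That simulation does not bear on differences as small as those of the members. The pair has 1 library a group, so a difference of at least 1 at a mean of at least 5 TPM was counted. Median-of-ratios scaling used genes above 0 in every library of a table at a mean of at least 1 TPM. The tables were treated as normalised separately. Python 3.11.15 with pandas 2.3.3, numpy 2.4.6 and matplotlib 3.10.9 did the rest.

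The members, the pathway and marker lists and the tests were chosen with earlier results of these data known. From each pathway group the rule names the 2 genes with the widest difference per table that pass its filter, and any gene called. Some genes the rule names are not reported here. Replicate numbers were not taken as pairs. Promoter windows are from RefSeq on GRCm38.p6, and exon overlaps from GENCODE M21 on GRCm38, another build than GRCm39, so no gene coordinates were taken from it.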

Additional observations from a re-analysis of the deposited data

How the results depend on the processing

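Under all 16 other settings of the Re comparison 0 members and 0 of the other pathway genes passed the threshold. Positive members numbered 4 without Re replicate 3 and 5 or 6 under the rest, in place of 6. Jak2, Lifr and Osmr stayed positive and Socs3 negative in each of the 16. Leaving out 1 library at a time, Lif ran from -0.0461 (without DMSO replicate 2) to 0.40, Jak1 from -0.18 to 0.0293 (without DMSO replicate 2), Stat3 from -0.0111 (without Re replicate 3) to 0.243, and Il6st from -0.00312 (without Re replicate 3) to 0.159. Jak2 ran from 0.17 to 0.22, Lifr from 0.11 to 0.29, Osmr from 0.22 to 0.46 and Socs3 from -0.13 to -0.01. Il6st was -0.0285 after median-of-ratios scaling and -0.00619 with mitochondrially encoded genes left out and the rest rescaled. Without 1 library, the genes called over the table were 0 to 7, in place of 0, and those at an unadjusted p under 0.05 were 424 to 1657, in place of 745, while without a filter there were 1226. Of those 745, 90.7% were higher in Re, against 44.5% of 562 after median-of-ratios scaling. Same-numbered deviations correlated at 0.163, 0.0771 and 0.0168, and the others at -0.172 to 0.0945. Re replicates 1 and 2 correlated best with their own number, and Re replicate 3 with DMSO replicate 2. Deviations from a mean of 3 libraries constrain each other, so these values cannot decide whether replicate numbers mark pairs. With a replicate block 0 genes were called and 810 were at an unadjusted p under 0.05.

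In the pair the genes past the size rule numbered 346, against 522 at a mean of at least 1 TPM and 123 after median-of-ratios scaling. Of the 123, 95 were higher and 28 lower, where 330 and 16 were so as deposited. Members past it stayed at 0 in all 6 other settings, and pathway genes past it were 1 with a pseudocount of 0.1. After median-of-ratios scaling Il6 was -0.00456, Jak2 -0.0511 and Socs3 -0.178. Socs3 was -0.0186 with mitochondrially encoded genes left out and -0.0587 with equal listed sums, a setting chosen after seeing the data. The cause of these changes was not tested.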
